A study of Saccharomyces cerevisiae with 36 samples.

Results

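The 46 genes described here encode proteins that build the small, or 40S, ribosomal subunit of budding yeast. They were taken as a given list of the small subunit processome and of later 40S assembly factors, and were matched to the array by gene symbol. The rule names genes and holds no threshold on a value, but the list was drawn up with earlier results of these data known. All 46 were present, each with 2 spots, among 5713 genes named on the array. Assembly starts in the nucleolus, where the UTP-A and UTP-B subcomplexes and the U3 small nucleolar ribonucleoprotein (snoRNP) bind the nascent precursor of ribosomal RNA and form the processome. Helicases, a GTPase and nuclease-like proteins then reshape and cleave the precursor, and a smaller set of factors accompanies the pre-40S particle to the cytoplasm. In yeast these genes belong to the ribosome biogenesis regulon, which is known to be transcribed in step with growth and to respond to TOR signalling. As background, caffeine is known to inhibit TOR complex activity in yeast.

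Cultures of Saccharomyces cerevisiae, with no strain named in the labels, had received calcofluor white at 0.02 or 0.1 mg/ml, congo red at 0.02 or 0.1 mg/ml, or caffeine at 2 or 20 mM for 5, 15 or 90 min. The first pair of compounds are dyes with affinity for polysaccharides of the cell wall, and caffeine is a purine analogue. Each of the 18 conditions had 2 arrays, on which RNA of treated and of untreated cells was hybridised in 2 colours. Replicate 1 carried treated RNA in Cy5 and replicate 2 in Cy3, so dye and replicate are the same factor. Whether drugs or doses had untreated cultures in common is not given by the labels. Each value is a log2 ratio, read as treated cells over untreated ones, with the median of each array set to 0. Pairs of array values are given in the order replicate 1, replicate 2. A gene is said to have risen or fallen where the Benjamini-Hochberg adjusted p of the limma fit over all genes was below 0.05. Counts of called genes under other settings of the processing show how far calls depended on it. Where the calls over all genes in the same fit are not given beside them, such counts are not results about the list. The SE of a value comes from 1 residual variance per gene over all 36 arrays and not from the spread of the pair beside it. A ratio of bulk RNA cannot tell fewer cells with a transcript from less transcript per cell.

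The precision was limited by 2 arrays per condition, with a median SE of 0.167 over all genes. Across all genes the arrays of a condition correlated at 0.532 after 15 min and 0.672 after 90 min of caffeine 20 mM, and between −0.524 and 0.148 in the other conditions. A gene-specific dye effect passed the threshold for 2799 of 4242 genes measured on all arrays and for 28 of the 46 assembly genes. LTV1 and UTP23 had the widest such effects of the list, with replicate 1 above the mean of its condition by 0.69 and 0.53 in the fit. ECM16 had values on 26 arrays. One channel label of caffeine 20 mM 15 min replicate 1 gives another time, and part of the labels also disagrees on calcofluor white 0.02 mg/ml 5 min replicate 1, 0.02 mg/ml 15 min on both replicates, 0.1 mg/ml 15 min on both replicates and congo red 0.02 mg/ml 90 min replicate 1. The titles were followed. Of 8 genes read as a check of the treatments, 5 or 6 rose at 90 min of caffeine 20 mM and of either dose of both dyes. In caffeine 20 mM 1 of the 8 fell at 90 min, and 1 rose and 1 fell at both 5 and 15 min. The lowest values of the 8 were −1.58, −1.62 and −1.23 at 5, 15 and 90 min of this dose. In caffeine 2 mM 1 of the 8 rose and 0 fell at 5 min and again at 15 min, with highest values of 1.70 and 2.04. The direction of 1 array of 2 mM at 5 min is in doubt, as given below. None passed at 5 or 15 min of the dyes or at 90 min of caffeine 2 mM, so in those conditions no response was seen in these genes either. HSP12, a small stress protein gene, stood at 3.58 in caffeine 20 mM and 2.12 in calcofluor white 0.1 mg/ml at 90 min, and PIR3, a wall protein gene, at 2.46 in congo red 0.1 mg/ml at 90 min.

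Assembly genes fell in 4 of the 18 conditions, which were caffeine 20 mM at 15 and 90 min and calcofluor white at 0.02 and 0.1 mg/ml at 90 min. In caffeine 20 mM at 15 min, 19 of 46 fell and 2 rose, where 16.8% of all 5258 genes tested fell and 14.3% rose. At 90 min 20 of 46 fell and 1 rose, against 22.4% of 5270 genes that fell and 22% that rose. The median over the 46 genes was −0.40 at 15 min and −0.54 at 90 min, beside medians of all genes at or near 0 by construction. In calcofluor white 0.1 mg/ml at 90 min 13 of 45 fell and 0 rose, against 8.34% and 6.33% of all genes. At 0.02 mg/ml 7 of 40 fell and 0 rose, against 5.59% and 5.51%.

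**Figure D1:**
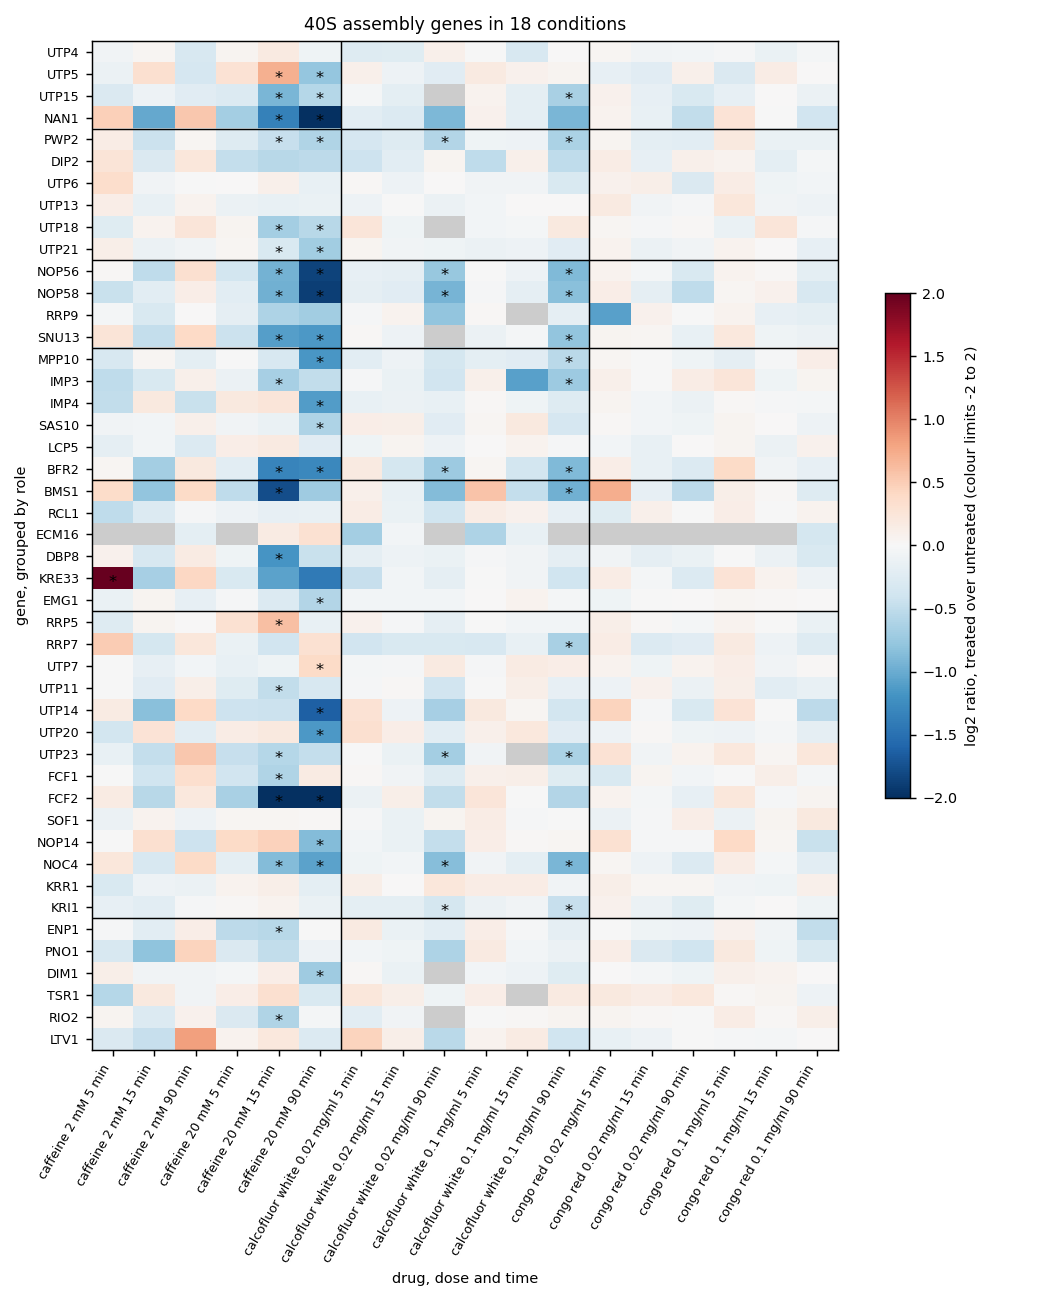
Fitted log2 ratios of the 46 assembly genes (vertical axis, grouped by role and separated by lines) in the 18 conditions (horizontal axis). Asterisks mark an adjusted p below 0.05 and grey marks a gene not tested. The asterisks lie in the columns of caffeine 20 mM at 15 and 90 min and calcofluor white at 90 min, apart from KRE33 in caffeine 2 mM at 5 min.

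In caffeine 20 mM at 15 min the largest decrease belonged to FCF2 (YLR051C), a small nucleolar protein needed for early cleavage of the precursor. FCF2 read −2.15 and −3.68, and its fitted value was −2.92 ± 0.322 (SE), 7.56-fold lower (limma adjusted p = 1.21e-06). Both arrays were far below 0, and both spots of each array were low. BMS1, the GTPase of the processome, read −1.84 and −1.70 and fell by 1.77 ± 0.312, which was 3.41-fold. Its 2 arrays differed by less than the SE.

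Among the subunits that bind the precursor first, UTP15 and NAN1 of the UTP-A subcomplex fell and UTP5 rose. UTP15 read −1.14 and −0.67, with a fitted value of −0.91 ± 0.122 (adjusted p = 1.6e-05). NAN1, also called UTP17, read −1.54 and −1.15 and fell by 1.35. UTP5 read 0.85 and 0.57, a rise of 0.71 ± 0.19 (adjusted p = 0.00752), so subunits of a single subcomplex lay on opposite sides of 0 on both arrays. For UTP5 the call was lost in 4 of 11 other settings, and the adjusted p became 0.479 without replicate 1, 0.0789 with no replicate block and 0.0567 when all arrays were given an equal spread (scaled arrays). UTP4, the remaining subunit on the list, stood at 0.06 and 0.30 and did not pass.

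Of the UTP-B subcomplex, whose subunits join the processome as a preformed unit, PWP2, UTP18 and UTP21 fell, and DIP2, UTP6 and UTP13 did not pass. UTP18 had the smallest p of the group, with −0.38 and −0.98 and a fitted value of −0.68 ± 0.194. The decrease of UTP21 was the smallest that passed among all the assembly genes, at −0.30, with −0.63 and 0.03. Here only replicate 1 was below 0, and over all conditions replicate 1 of this gene lay below the mean by 0.20 in the fit, at −0.20. UTP6 read 0.09 and 0.10.

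All 4 listed proteins of the U3 snoRNP were below 0 on both arrays at 15 min, and 3 of them fell. NOP58 (−0.73 and −1.19) and NOP56 (−0.66 and −1.24), the paired core proteins of box C/D RNPs, fell by 0.96 ± 0.162 and 0.95 ± 0.209. SNU13, which binds the kink-turn of U3 and also the U4 RNA of the spliceosome, read −0.98 and −1.24 and fell by 1.11 ± 0.211. RRP9, the U3-specific protein, read −0.57 and −0.67, and with its wider SE of 0.301 it did not pass (adjusted p = 0.123).

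The Mpp10 complex, which joins U3 to the precursor, and the Sas10 proteins moved unevenly. BFR2 read −1.49 and −1.15 and fell by 1.32 ± 0.219, or 2.5-fold, and IMP3 fell by 0.66. MPP10 (−0.32), IMP4 (0.24), LCP5 (0.18) and SAS10 (−0.14, with 0.16 and −0.44) did not pass. The partners of IMP3 within its own complex were therefore not called at this time.

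The enzymes held both the steady BMS1 and the most discordant pair of arrays in this condition. DBP8, a DEAD-box helicase, read −0.22 and −2.15, with a fitted value of −1.19 ± 0.24. One spot of replicate 2 carried this, as its spots stood at −0.41 and −4.04 before centring, and the value was −0.26 (adjusted p = 0.109) when 1 fixed spot of each gene was used. RCL1, the partner of BMS1, was at −0.17 and ECM16, the helicase known to release U3, at 0.17 with 0.48 and −0.15. KRE33, a cytidine acetyltransferase of 18S rRNA, had −1.57 and −0.57 and an SE of 0.595, and it did not pass at −1.07.

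Of 14 other early factors, FCF2, UTP11, UTP23, FCF1 and NOC4 fell and RRP5 rose. FCF1, the PIN-domain nuclease of the early cleavages, read −0.52 and −0.69 and fell by 0.61. With 1 fixed spot FCF1 was at −0.34 (adjusted p = 0.254), and its call was also lost with no replicate block (0.158), with scaled arrays (0.066), with caffeine arrays alone (0.0712) and without replicate 1 (0.298). NOC4 fell by 0.87. Its binding partner NOP14 stood at 0.46, with 0.86 and 0.06, and did not pass (adjusted p = 0.091), so a rise of NOP14 was not shown. RRP5, which serves both subunits, read 0.75 and 0.46, a rise of 0.61 ± 0.167. Its adjusted p became 0.455 without replicate 1, 0.117 with scaled arrays and 0.0503 with no replicate block. SOF1 was near 0, at 0.10 and −0.01.

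Among the late pre-40S factors RIO2, an atypical kinase of the cytoplasmic particle, read −0.80 and −0.41 and fell by 0.61 ± 0.139, and ENP1 fell by 0.56. PNO1 (−0.49), DIM1 (0.13), TSR1 (0.32) and LTV1 (0.21, with 0.81 and −0.38) did not pass. The array values of LTV1 lay on opposite sides of 0.

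Of the 21 genes called at 15 min, BFR2, BMS1, FCF2, NOP58 and UTP15 passed under all other settings in which they were tested. These were 10 for UTP15 and 11 for the rest, 2 of which leave out an array. The other 16 each lost the call in 2 to 9 settings, UTP21 and UTP23 in the most. The number of called genes was 7 with scaled arrays, 8 with no replicate block, 13 with caffeine arrays alone, 6 without replicate 1 and 16 without replicate 2.

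**Figure D2:**
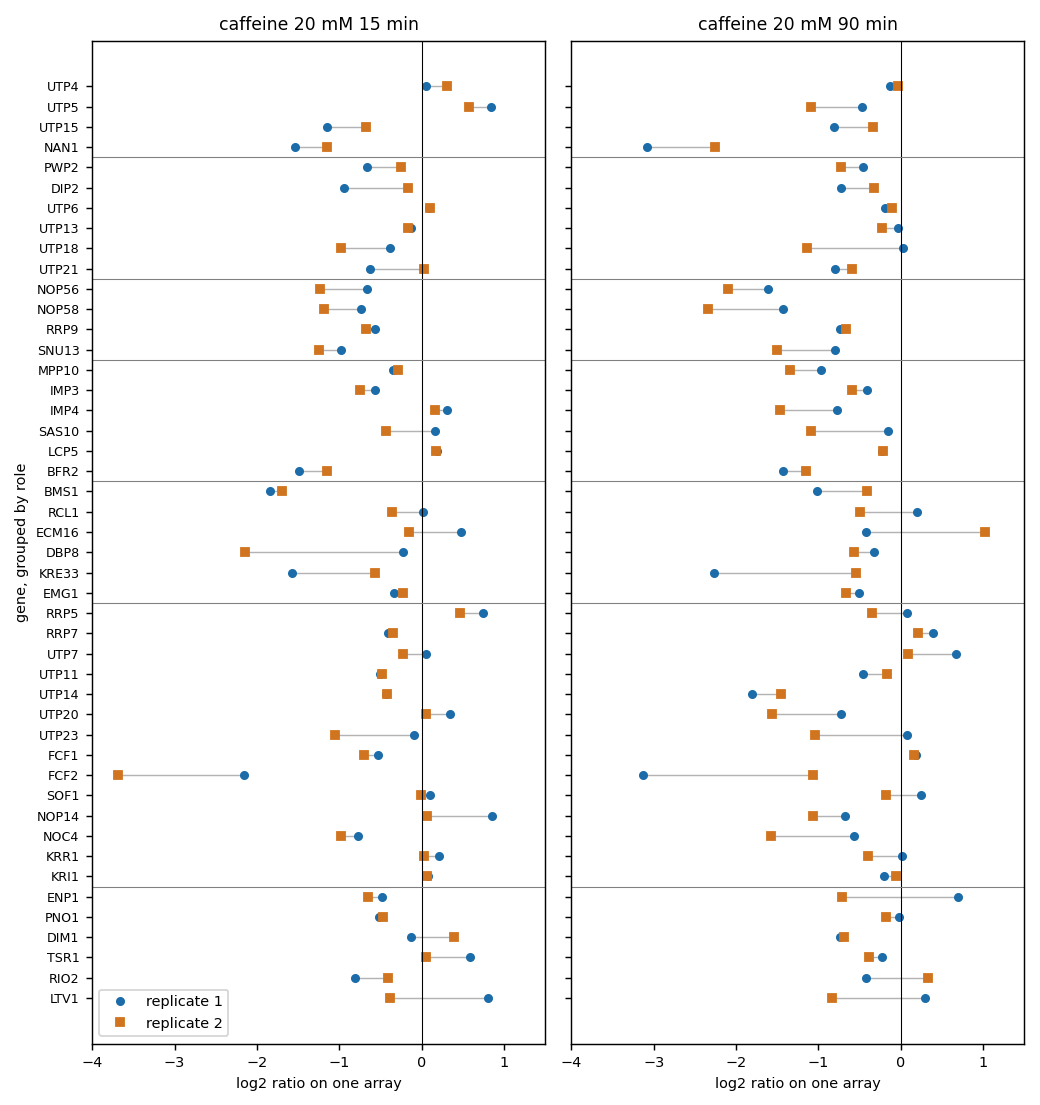
Centred log2 ratio on each array (horizontal axis) for the 46 assembly genes (vertical axis, grouped by role) in caffeine 20 mM at 15 min, left, and 90 min, right. Circles are replicate 1, squares are replicate 2 and grey lines join the pair. NAN1, NOP56 and NOP58 lie further left at 90 min, and the pair of DBP8 at 15 min spans −2.15 to −0.22.

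After 90 min of caffeine 20 mM the lowest fitted value was that of NAN1 (YPL126W), at −2.67 ± 0.316, which is 6.36-fold lower (adjusted p = 1.02e-06). NAN1 read −3.08 and −2.26, and FCF2 was lower on replicate 1 and NOP58 on replicate 2. UTP15 and UTP5 of the same subcomplex also fell, by 0.57 and 0.78, and UTP4 stayed near 0 at −0.09. Of the 4 listed UTP-A genes 3 were thus lower at this time, UTP5 among them. The decrease of UTP5 had an adjusted p of 0.0805 with scaled arrays and 0.468 without replicate 2.

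NOP58 (YOR310C) and NOP56 (YLR197W) had the smallest p at this time. NOP58 read −1.43 and −2.34, for −1.89 ± 0.162 (3.7-fold, adjusted p = 1.36e-08). NOP56 read −1.61 and −2.10, for −1.86 ± 0.209. Both genes were far below 0 on either array. SNU13 fell by 1.15, and RRP9, at −0.70, again did not pass (adjusted p = 0.0661).

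Of the Mpp10 and Sas10 group 4 genes fell at 90 min. MPP10 itself, the scaffold of its complex, read −0.96 and −1.35 and fell by 1.16 ± 0.172. IMP4 fell by 1.12, BFR2 by 1.29 and SAS10 by 0.62, and IMP3 (−0.50) and LCP5 (−0.22) did not pass. Within the complex MPP10 and IMP4 were called here and IMP3 was called at 15 min. The difference of IMP3 between the times did not pass. Its call at 15 min was lost with no replicate block, values not centred, scaled arrays, array weights or 1 fixed spot.

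Of the enzymes, EMG1, a methyltransferase of 18S rRNA, fell by 0.59 ± 0.109 and was the only one of 6 to pass. BMS1 stood at −0.72 (−1.02 and −0.41, adjusted p = 0.0677) and KRE33 at −1.41 (−2.27 and −0.55, adjusted p = 0.0598). Both were below 0 on each array.

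Early factors that fell were UTP14, UTP20, FCF2, NOC4 and NOP14. UTP14, which activates the helicase that removes U3, read −1.80 and −1.45 and fell by 1.63 ± 0.234, 3.09-fold. UTP20, a large helical-repeat scaffold, read −0.73 and −1.56 and fell by 1.15 ± 0.161. FCF2 read −3.13 and −1.07, and its fitted −2.10 spans arrays that differed by 2.06. NOP14 and NOC4 now both fell, by 0.87 and 1.07. The only rise was that of UTP7, a beta-propeller protein of the processome, at 0.38 ± 0.11 with 0.67 and 0.09. That call was lost with values not centred (adjusted p = 0.0564), without the replicate block (0.0949), with scaled arrays (0.139), with array weights (0.0867), with caffeine arrays alone (0.0686) and without replicate 1 (0.322).

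DIM1, the dimethylase of 18S rRNA, was the only late factor that fell, with −0.74 and −0.69 and a value of −0.72 ± 0.0914. ENP1 (0.70 and −0.72) and RIO2 (−0.42 and 0.33) had arrays on opposite sides of 0 and fitted values of −0.01 and −0.05.

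Of the 21 genes called at 90 min, 10 passed under all other settings in which they were tested, 10 for DIM1 and 11 for the rest. They were BFR2, DIM1, FCF2, MPP10, NAN1, NOP56, NOP58, UTP14, UTP20 and UTP21. The other 11 each lost it in 1 to 6 settings, UTP7 and UTP18 in the most. The count of called genes was 15 without replicate 2 and 21 without replicate 1. With values not centred 27 assembly genes fell and 0 rose, but the median of all genes then stood at −0.12. The share of all genes called in that fit is not given, so this count is not a result about the list.

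The question of timing was addressed by the difference between 90 and 15 min of caffeine 20 mM, fitted as a contrast. In all 12 of 46 genes were lower and 3 higher at 90 than at 15 min, where 17.8% of 5202 genes were lower and 17.9% higher. The median difference was −0.17 over the list and −0.09 over all genes.

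The 11 genes that fell at both times were UTP15, NAN1, PWP2, UTP18, UTP21, NOP56, NOP58, SNU13, BFR2, FCF2 and NOC4. Only NAN1, NOP56 and NOP58 of these were lower at 90 than at 15 min by the contrast (−1.32, −0.91 and −0.93). Another 8 genes passed at 90 min and not at 15 min, and for 7 of them the difference itself was called, namely MPP10 (−0.84), IMP4 (−1.36), SAS10 (−0.49), UTP14 (−1.20), UTP20 (−1.35), NOP14 (−1.33) and DIM1 (−0.85). EMG1 was the exception. Genes picked for a pass at 90 min and none at 15 min lean toward a called difference, so this count is a description. The share of all genes in each class of this and the following paragraphs is not given. The class counts are therefore not results about the list.

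DIM1 had the smallest p of this contrast. Its arrays were −0.13 and 0.39 at 15 min and −0.74 and −0.69 at 90 min, a difference of −0.85 ± 0.129 (adjusted p = 7.56e-05). UTP20 went from 0.35 and 0.06 to −0.73 and −1.56 (adjusted p = 0.000173). UTP5 went from 0.85 and 0.57 to −0.48 and −1.09, a difference of −1.49 ± 0.268. For these 3 genes every array at 90 min was below every array at 15 min. As they were picked by this same contrast, that gap is a description and not further support. RRP5 was also lower at 90 than at 15 min, with a difference of −0.75, a call lost in 6 of 13 other settings (adjusted p 0.0618 to 0.318).

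A further 8 genes, IMP3, BMS1, DBP8, UTP11, UTP23, FCF1, ENP1 and RIO2, fell at 15 min and did not pass at 90 min. For FCF1 and RIO2 the difference was called, as higher at 90 min. FCF1 went from −0.52 and −0.69 to 0.18 and 0.16, a difference of 0.78 ± 0.229 (adjusted p = 0.0129). For RIO2, with a difference of 0.56, the arrays at 90 min were −0.42 and 0.33. For BMS1 and the remaining genes of this set the difference did not pass, and a return toward the untreated level was not shown. UTP7 was the third gene higher at 90 min, by 0.46. The differences of FCF1, RIO2 and UTP7 did not pass without the replicate block (adjusted p = 0.182, 0.163 and 0.176), nor with scaled arrays (0.136, 0.321 and 0.244), array weights (0.0545, 0.105 and 0.103) or caffeine arrays alone (0.0893, 0.111 and 0.129). With values not centred RIO2 (0.139) and UTP7 (0.142) were lost, and with 1 fixed spot FCF1 (0.166). Counting fits that leave out an array, the call was lost in 7 of 13 settings for FCF1, 8 of 12 for RIO2 and 8 of 13 for UTP7.

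The 16 genes that passed at neither time were UTP4, UTP6, UTP13, DIP2, RRP9, LCP5, RCL1, ECM16, KRE33, RRP7, SOF1, KRR1, KRI1, PNO1, TSR1 and LTV1. DIM1, UTP20 and UTP5 passed the contrast under all other settings in which they were tested, 12 for DIM1 and 13 for UTP20 and UTP5. Of the other genes lower at 90 min, IMP4 and NOP14 lost the call in 2 settings, NOP58 in 4, MPP10 and UTP14 in 5, NAN1 in 6 and NOP56 and SAS10 in 8. The number of differing genes was 4 with scaled arrays, 5 with no replicate block, 8 with array weights and 5 with caffeine arrays alone. It ranged from 8 to 16 over fits that each left out 1 of the 4 arrays. With values not centred 15 assembly genes were lower and 1 higher, but the median difference of all genes then stood at −0.24. The split of calls over all genes moved toward lower as well, as given at the end.

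**Figure D3:**
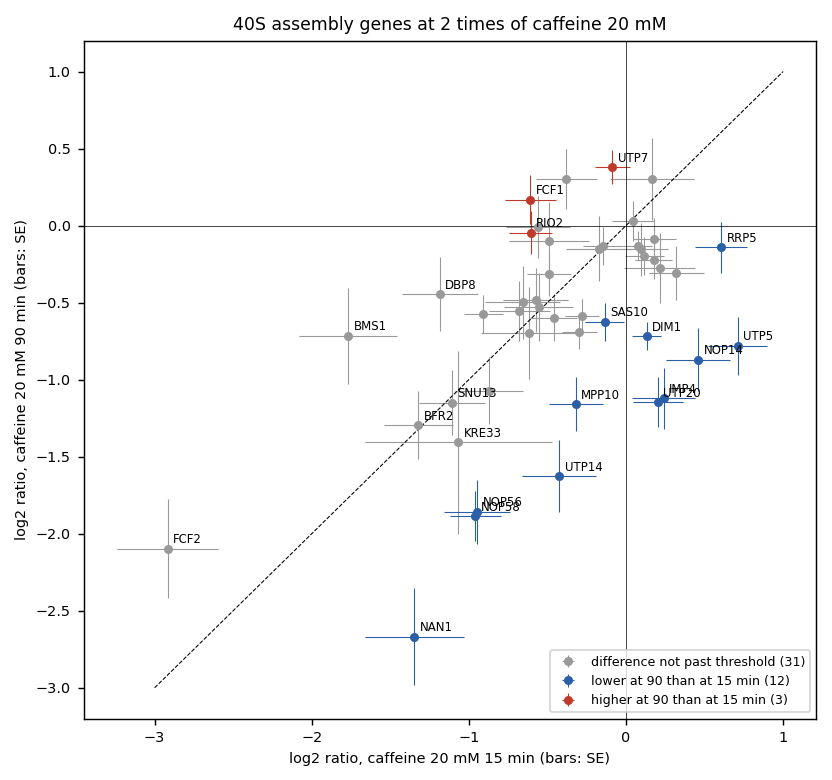
Fitted log2 ratio at 15 min (horizontal axis) against 90 min (vertical axis) of caffeine 20 mM for the 46 assembly genes, with bars of 1 SE and a dashed line of equality. Blue marks 12 genes lower and red 3 genes higher at 90 than at 15 min by the contrast. UTP5 lies at 0.71 and −0.78, and NAN1 at −1.35 and −2.67.

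At 5 min of caffeine 20 mM limma called 0 of 45 genes, 6 with an unadjusted p under 0.05, and 1.2% of all genes. The smallest p belonged to ENP1 (−0.48 and −0.56, adjusted p = 0.297), FCF1 (−0.23 and −0.54) and UTP23 (0.04 and −0.96). Between 5 and 15 min FCF2 was the only one of 45 genes to differ, where 2.42% of all genes did. It read −0.54 and −0.75 at 5 min, and the difference was −2.27 ± 0.456 (adjusted p = 0.00745). This call was lost with scaled arrays (adjusted p = 0.502), with caffeine arrays alone (0.419), without either array at 5 min (0.0631 and 0.0641) and without replicate 2 at 15 min (0.136).

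The 2 doses of caffeine were compared at each time. In caffeine 2 mM limma called 0 of 46 genes at 90 min and 0 of 45 at 15 min, with 0% and 0.54% of all genes called and 6 and 11 assembly genes at an unadjusted p under 0.05. The median of the list was −0.21 at 15 min and 0.07 at 90 min. At 15 min 25 of 45 genes were below 0 on both arrays, against 23.6% of all genes. UTP14 (−0.60 and −1.06, adjusted p = 0.185), NAN1 (−1.17 and −0.89) and PNO1 (−0.57 and −1.02) had the smallest p there. At 90 min LTV1 (1.69 and −0.05), UTP23 (1.54 and −0.47) and UTP4 (−0.69 and 0.05) did, and each of these pairs was split across 0.

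Fitted as a difference, 20 minus 2 mM at 90 min, 17 of 46 genes were lower and 1 higher at the higher dose, where 12% and 11.3% of all genes were. NAN1 read 1.10 and −0.02 at 2 mM, and the difference was −3.21 ± 0.446 (adjusted p = 2.39e-05). NOP58 read 0.30 and −0.02 at 2 mM, a difference of −2.02 ± 0.229, and NOP56 0.98 and −0.33, a difference of −2.18 ± 0.296. UTP14, at 0.88 and −0.08 with 2 mM, differed by −2.02. Each of these genes was lower on both arrays of 20 mM than on either array of 2 mM. As they were picked by this difference, that is a description and not further support.

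SNU13 (−1.55), FCF2 (−2.31), DIM1 (−0.64) and BFR2 (−1.49) completed the 8 with the smallest p. Their arrays at 2 mM were 1.12 and −0.32, 0.33 and 0.09, −0.24 and 0.09, and 0.26 and 0.14. NOC4, SAS10, UTP20, UTP21, MPP10, UTP23, LTV1, PWP2 and UTP18 were lower too, with differences from −1.46 to −0.62. Replicate 1 at 2 mM was above 0 for LTV1 and UTP23, by 1.69 and 1.54, and these arrays enter their differences.

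UTP7 was the gene that was higher at 20 mM, by 0.44 ± 0.156, with 0.11 and −0.23 at 2 mM. NAN1, NOP58 and UTP14 passed under all 13 other settings, and UTP7 did not without the replicate block (adjusted p = 0.285), with scaled arrays (0.19) or with values not centred (0.129), among others. The number of differing genes was 4 with scaled arrays, 8 with no replicate block and 9 with caffeine arrays alone. Replicate 1 and replicate 2 of either dose, left out in turn, gave 11 to 20.

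At 15 min FCF2 and UTP15 were lower at 20 than at 2 mM, with differences of −2.36 and −0.80, and 0 of 45 genes were higher, against 3.03% and 1.79% of all genes. FCF2 read −0.72 and −0.39 and UTP15 −0.23 and 0.02 at 2 mM. The call of FCF2 was lost in 4 of 13 other settings, which were scaled arrays (adjusted p = 0.179), caffeine arrays alone (0.268) and replicate 2 of either dose left out (0.0673 and 0.0761). That of UTP15 was lost in 7 of 12, with adjusted p from 0.0514 to 0.398, the highest with no replicate block. At 5 min 0 of 45 passed (10 at an unadjusted p under 0.05), with 2.59% of all genes called. Within 2 mM no gene differed between 15 and 5 min or between 90 and 15 min (11 and 17 of 45 at an unadjusted p under 0.05), with 1.6% and 0.28% of all genes called. The median difference of the list at 15 min was −0.10, as the values at 2 mM were also below 0.

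KRE33 was the single gene called in caffeine 2 mM at 5 min, where 5.15% of all genes were. It read 4.85 and 0.16, so the fitted rise of 2.51 ± 0.595 (adjusted p = 0.0206) rests on 1 array. Both spots of that array were high, at 5.15 and 4.31 before centring. Without replicate 1 the value was 0.03 (adjusted p = 0.988). That array correlated at −0.375 with caffeine 2 mM 15 min replicate 1 over all genes, the lowest among 306 pairs of 1 dye orientation, so its direction is not settled. With its sign turned KRE33 was at −2.35, and 8 assembly genes fell and 1 rose in this condition. The share of all genes called in that fit is not given, so these counts are not a result about the list.

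In calcofluor white at 0.1 mg/ml the assembly genes that fell did so at 90 min. UTP15 read −0.70 and −0.61 and fell by 0.65 ± 0.122 (adjusted p = 0.000944). KRI1, an early processome factor not called in caffeine, read −0.48 and −0.43 and fell by 0.46 ± 0.0923. In both genes the 2 arrays lay close together. Of the listed U3 proteins NOP58 (−0.62 and −1.07), NOP56 (−0.28 and −1.50) and SNU13 (−0.14 and −1.45) fell by 0.84, 0.89 and 0.79, and RRP9 did not pass.

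NOC4 (−0.48 and −1.34), PWP2 (−0.39 and −0.87) and BFR2 (−0.55 and −1.20) fell by 0.91, 0.63 and 0.88. RRP7, MPP10, BMS1, UTP23 and IMP3 also fell, by 0.54 to 0.96. Replicate 2 was the lower array for NOC4, PWP2, BFR2, RRP7, BMS1 and UTP23, and replicate 1 for MPP10 and IMP3. Of the 6 late pre-40S factors 0 passed, and FCF2, the lowest gene of caffeine at 15 min, stood at −0.58 and did not pass.

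Calcofluor white at 0.02 mg/ml gave 7 decreases at 90 min, those of NOP58 (−0.49 and −1.36), PWP2 (−0.44 and −0.74), NOC4 (−0.56 and −1.14), KRI1 (−0.20 and −0.49), NOP56 (−0.34 and −1.17), BFR2 (−0.39 and −1.07) and UTP23 (−0.13 and −1.24). All 7 were also among the 13 at the higher dose. The share of all genes called at both doses is not given, and the doses may have had untreated cultures in common. The overlap is thus a description and not further support. Another 6 genes, among them UTP15, UTP18 and SNU13, were not tested at the lower dose for want of a value on an array. Between the doses 0 of 40 genes differed, 0 also at an unadjusted p under 0.05, where 0% of all genes did, and the median difference was −0.04.

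The calls in calcofluor white depended on single arrays. At 0.1 mg/ml the count was 0 without replicate 2 and 9 without replicate 1, 3 without the replicate block, 4 with scaled arrays and 8 with the sign of 1 caffeine array turned. At 0.02 mg/ml it was 0 without replicate 2 and 3 without replicate 1, 1 without the block, 2 with scaled arrays, 13 with values not centred and 15 with arrays of the drug alone. Without centring the median of all genes at 0.02 mg/ml moved by −0.14 and its calls over all genes split into 146 higher and 520 lower, from 259 and 263. At 0.1 mg/ml the split became 217 and 510, from 330 and 435. No gene kept its call under all the other settings in which it was tested at either dose.

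At 5 and 15 min of calcofluor white limma called 0 assembly genes at either dose (1 to 3 at an unadjusted p under 0.05), with 0% to 0.0197% of all genes called. In 0.1 mg/ml at 15 min IMP3 came closest (−2.08 and −0.09, adjusted p = 0.0554), followed by UTP4 (−0.60 and −0.06) and BFR2 (−0.21 and −0.53). The difference between 90 and 15 min at 0.1 mg/ml passed for 0 of 42 genes (8 at an unadjusted p under 0.05), against 2.37% of all genes, with SAS10, KRI1 and NOP58 nearest (adjusted p = 0.107, 0.12 and 0.135). A change over this interval was thus not shown for any single gene, although the calls of this drug were made at 90 min.

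In congo red limma called 0 assembly genes at every dose and time, with 0 to 3 genes a condition at an unadjusted p under 0.05. At 90 min the median of the list was −0.08 at 0.02 mg/ml and −0.11 at 0.1 mg/ml, with 0.691% and 1.38% of all genes called. At the higher dose ENP1 (−0.08 and −0.89, adjusted p = 0.402), UTP14 (−0.04 and −1.01) and NOP14 (−0.19 and −0.70) had the smallest p. At the lower dose NOP58 (−0.27 and −0.75, adjusted p = 0.225), KRI1 (−0.29 and −0.20) and UTP15 (−0.49 and −0.10) did. These pairs were below 0 on both arrays, as were 22 of 46 genes at 0.1 mg/ml, against 19.2% of all genes. At 5 and 15 min the largest share of all genes called in congo red was 0.0187%. Between the doses at 90 min, and between 90 and 15 min at 0.1 mg/ml, 0 of 45 genes differed, with 0% and 0.0748% of all genes called and 0 assembly genes at an unadjusted p under 0.05. The early pair farthest apart was that of RRP9 in 0.02 mg/ml at 5 min, 0.10 and −2.29.

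The 2 dyes were compared at matched dose and time as congo red minus calcofluor white. At 0.1 mg/ml and 90 min limma called 0 of 45 genes, where 0.288% of all genes differed, and the median difference was 0.22. Of the unadjusted 95% intervals 11 lay off 0, and 31 of 45 lay within 1 log2 unit of 0 on both sides. UTP15 had the smallest p, with a difference of 0.54 and an interval of 0.17 to 0.90 (adjusted p = 0.197). For UTP23 the interval was 0.25 to 1.47, and for KRI1 0.10 to 0.64. These data thus do not show that the dyes differ for any assembly gene, nor that they act alike. At 5 and 15 min 0 of 45 and 0 of 42 genes differed (0 and 1 at an unadjusted p under 0.05), with 0% of all genes called, and 39 and 38 intervals lay within 1 log2 unit of 0.

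**Figure D4:**
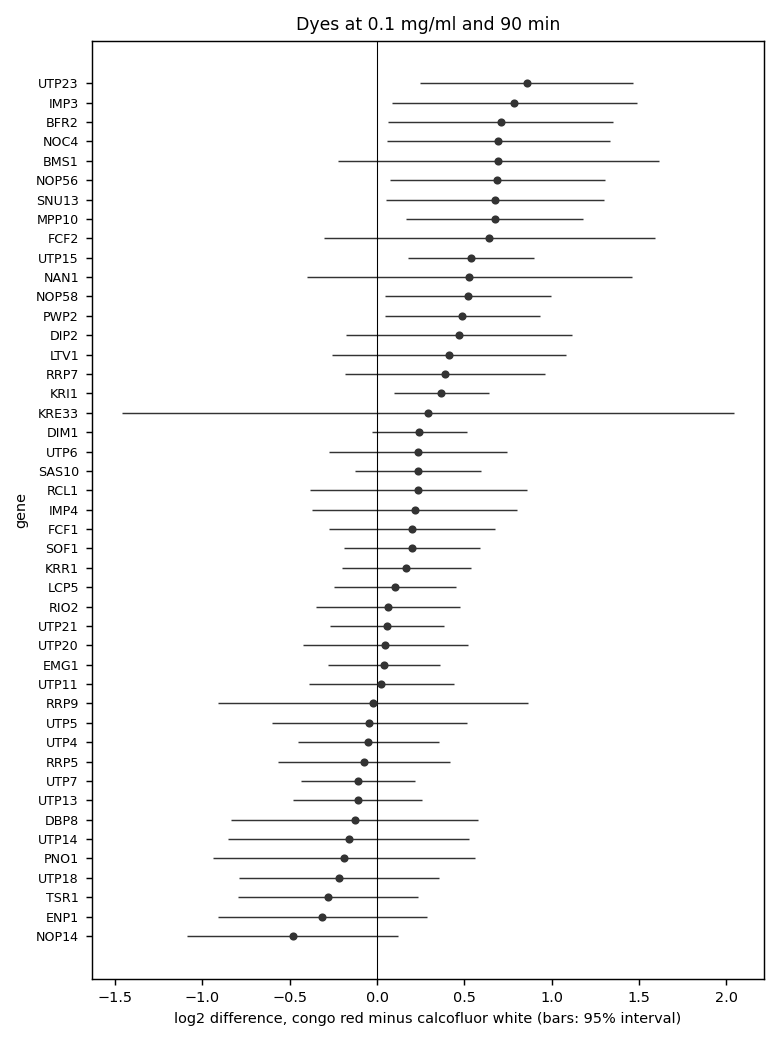
Difference of log2 ratios, congo red minus calcofluor white at 0.1 mg/ml and 90 min (horizontal axis), for 45 assembly genes sorted by size, with 95% intervals that are not adjusted for the number of genes. The median is 0.22, and 11 of the intervals lie off 0.

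Genes of neighbouring steps of ribosome production were read in the same fit. Their counts are to be read against the shares of all genes that fell, which were 16.8% and 22.4% in caffeine 20 mM at 15 and 90 min and 8.34% in calcofluor white 0.1 mg/ml at 90 min. Of 29 other 40S assembly genes tested in caffeine 20 mM, 9 fell and 1 rose at 15 min (31% fell), and 15 fell and 2 rose at 90 min (51.7%). In calcofluor white 2 of 26 fell (7.69%), a share near that of all genes. The genes of this list that rose were NOP19 at 15 min and HRR25 and SQS1 at 90 min, by 0.94, 0.48 and 0.93. DHR2, a nucleolar helicase, fell by 0.68 (−0.68 and −0.69), 0.91 and 1.04 in these conditions, and RRP12, an export factor, fell at both times of caffeine, with −1.32 and −0.68 at 15 min and a fitted −0.91 at 90 min. Of the 60S assembly factors 19 of 64 fell and 4 rose at 15 min of caffeine 20 mM (29.7% fell), and 43 of 63 fell and 0 rose at 90 min (68.3%), with medians of −0.18 and −0.54. In calcofluor white 0.1 mg/ml at 90 min 11 of 62 fell (17.7%) and 2 rose. The risers were DBP10, JJJ1, RSA1 and SPB4 in caffeine, by 0.31 to 0.58, and IPI1 and REI1 in calcofluor white, by 0.72 and 0.80. NOG2, a GTPase of the pre-60S particle, fell by 4.06 (−4.33 and −3.78) at 15 min, below the lowest of the 46 genes, and by 2.26 at 90 min.

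RNA polymerase I subunits, which transcribe the precursor, fell for 5 of 7 genes at 15 min, 4 of 7 at 90 min and 4 of 7 in calcofluor white 0.1 mg/ml. At 90 min of caffeine 1 of the 7 rose, RRN3 (0.70 and 0.94), which is an initiation factor of the polymerase rather than a subunit, by 0.82. RPA43 read −1.06 and −1.08 at 15 min and fell by 1.07, then by 2.08 at 90 min. Among genes of small subunit ribosomal proteins the decreases numbered 40 of 51 at 15 min, 47 of 51 at 90 min and 38 of 50 in calcofluor white 0.1 mg/ml, with 0 of 52 in congo red 0.1 mg/ml at 90 min. Their medians were −0.76, −1.03, −0.69 and −0.21. Many of these genes have a near-identical second copy, which an array may not separate.

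Of 11 regulators known to act on these genes, SCH9, a kinase downstream of TOR, rose by 0.76 (0.75 and 0.78) and RAP1 by 0.40 (0.58 and 0.23) in caffeine 20 mM at 15 min, a share near the 14.3% of all genes that rose. At 90 min TOR2 was the only regulator that passed, at −0.36, where 22.4% of all genes fell and 22% rose. SFP1, the activator of ribosome biogenesis genes, was at 0.30 and 0.28, and DOT6 and TOD6, repressors of this regulon, at 0.03 and 0.36 at 15 min, none of which passed.

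**Figure D5:**
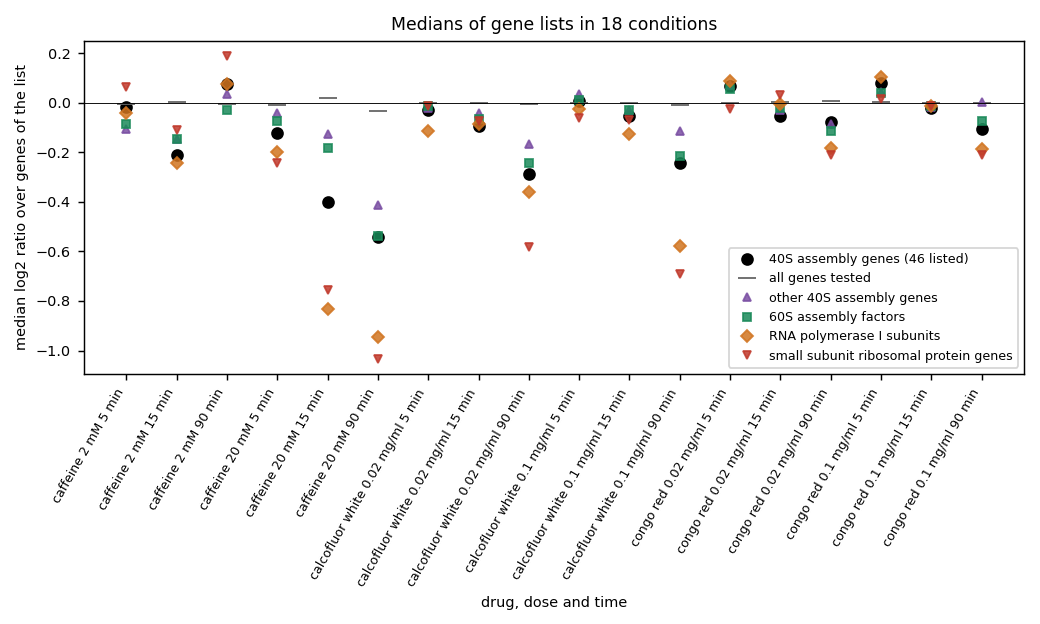
Median fitted log2 ratio of each gene list (vertical axis) in the 18 conditions (horizontal axis), with a dash for all genes tested. The black points of the 46 assembly genes lie at −0.40 and −0.54 in caffeine 20 mM at 15 and 90 min, above the small subunit ribosomal protein genes at −0.76 and −1.03.

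Over the 18 conditions the list was not of a piece. For the 37 assembly genes with a value everywhere, the median correlation with the mean of the others was 0.498. NOP56 (0.979), NAN1 (0.963), BFR2 (0.943), NOC4 (0.939) and NOP58 (0.923) followed that mean most closely. UTP7 (−0.457), UTP4 (−0.398), SOF1 (−0.358), RRP5 (−0.102) and LCP5 (−0.03) ran against it or apart from it. Of these 37 genes 18 were above 0.5, against 19.1% of other genes, and 9 were above 0.8, against 6.80%. These correlations share arrays and dye terms and are a description.

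The genes outside the list most like the mean of the 37 were NOC3, a 60S assembly factor (r = 0.984 over 18 conditions), RPA43 (0.975), NIP7, of 60S assembly (0.966), RRB1, a ribosomal protein chaperone gene (0.964), and DPH2, of diphthamide synthesis (0.956). RPS3, NOP2, IMD2, RPA49 and RPL31A followed at 0.950 to 0.956. The most opposed were MSB3 (−0.955), ISA2, PPG1, BXI1 and SDS22 (−0.936). Of the 10 most like, 5 are on the lists of 60S assembly factors and RNA polymerase I subunits given above. RPS3 is on that of small subunit ribosomal proteins. The share of these lists among all genes ranked is not given, so this is a description.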

How the data were processed

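Per the labels, each of 36 samples is a 2-colour array of treated and untreated yeast RNA. As deposited, values are on a natural log (ln) scale, each array having a mean of 0, which was read from the values. The scanner, the background correction and how arrays were normalized are not given here in any source used. A common sign of both dye orientations was read from the correlation of replicates in caffeine 20 mM, and treated over untreated was assumed. Spots at the repeated floor value of an array, 1.61% to 16.1% of named spots, were treated as missing. Division by 0.6931 gave log2 values, the spots of each gene were averaged, and each array was shifted to a median of 0. Of 15488 spots, 3616 without a gene name were left out.

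With limma 3.58.1 (R 4.3.3), a model of 18 conditions plus 1 dye coefficient, equal to the replicate block, was fitted to the 36 arrays. It covered 5391 genes with values on at least 24 arrays, and a comparison used genes with both arrays of its conditions. The block was kept because equally numbered arrays deviated together, with correlations of 0.113 to 0.784 over 153 pairs of conditions. Benjamini-Hochberg adjustment ran over all genes of a comparison, with a threshold of 0.05. The residual degrees of freedom were 17 and the prior degrees of freedom 3.67. Intervals are at 95%. The procedure was run on simulated data with changes set in a single condition. There the noise of a gene was independent between arrays and of the same size on each. That run therefore does not bear on how the calls depended on the spread of single arrays.

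The 46 genes, the role groups and the other lists were chosen with earlier results of these data known. Any listed gene could be named. Array values are given for the genes of each role group with the smallest and largest p in caffeine 20 mM at 15 min, for the 8 with the smallest p where any passed (or the 3 where none did), and for genes called against the majority. Other lists are shown by up to 4 genes, and likeness by the 10 highest and 5 lowest correlations. KRE33 in caffeine and FCF2 in calcofluor white, and the genes of other lists that rose, were named after their values were seen. Alternatives covered the block, centring, array scaling, floored spots, missing arrays, array weights, 1 spot per gene, the sign of 1 array, arrays of the drug alone and each array left out. Preparation used scipy 1.17.1, pandas 2.3.3 and numpy 2.4.6 under python 3.11.15, and drawing used matplotlib 3.10.9. Promoter and protein sequences were not used here.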

Additional observations from a re-analysis of the deposited data

Results flagged for a closer look

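Differences between doses or times of the same drug were called for assembly genes in 4 comparisons, each tested as a contrast of the fit. Between 20 and 2 mM caffeine 2 genes differed at 15 min, FCF2 and UTP15, both lower at 20 mM. At 90 min 18 genes differed between these doses, 17 lower at 20 mM and UTP7 higher. Between 15 and 5 min of caffeine 20 mM 1 gene differed, FCF2, lower at 15 min. Between 90 and 15 min 15 genes differed, 12 lower and 3 higher at 90 min. The contrasts share arrays of caffeine 20 mM, so their lists are not independent.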

How the results depend on the processing

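The counts below are of assembly genes past the threshold, and the causes of the changes were not tested. The share of all genes called in each of these fits is not given. A change in a count may therefore be shared by all genes and is not a result about the list. Among repeats of single called values, 805 kept direction and side of the threshold, 335 kept direction and lost the call, and 1 reversed, KRE33 in caffeine 2 mM at 5 min (−2.35 with the sign of its replicate 1 turned). Without the replicate block the counts were 8 for caffeine 20 mM at 15 min, 1 and 3 for calcofluor white 0.02 and 0.1 mg/ml at 90 min, 1 and 8 for 20 minus 2 mM at 15 and 90 min, and 5 for 90 minus 15 min of caffeine 20 mM. No other count moved beyond 1.5 times with the block left out.

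With arrays scaled to one spread they were 0 for caffeine 2 mM at 5 min, 7 for 20 mM at 15 min, 2 and 4 for calcofluor white 0.02 and 0.1 mg/ml at 90 min, 1 for 0.1 mg/ml at 15 min, 1 for congo red 0.02 mg/ml at 90 min, 0 and 4 for 20 minus 2 mM at 15 and 90 min, 0 for 15 minus 5 min and 4 for 90 minus 15 min. With array weights they were 0 for caffeine 2 mM and 1 for 20 mM at 5 min, 1 for calcofluor white 0.1 mg/ml at 15 min, 3 for congo red 0.02 mg/ml at 90 min, 4 for 15 minus 5 min and 8 for 90 minus 15 min. With arrays of the drug alone they were 0 for caffeine 2 mM at 5 min, 13 for 20 mM at 15 min, 15 for calcofluor white 0.02 mg/ml at 90 min, 0 and 9 for 20 minus 2 mM at 15 and 90 min, 0 for 15 minus 5 min, 5 for 90 minus 15 min, 1 for calcofluor white 90 minus 15 min and 1 for congo red minus calcofluor white at 90 min. With the sign of caffeine 2 mM 5 min replicate 1 turned they were 9 and 1 for caffeine 2 mM at 5 and 15 min, 8 for calcofluor white 0.1 mg/ml at 90 min, 2 for 15 minus 5 min of 20 mM, and 1 each for 15 minus 5 and 90 minus 15 min of 2 mM. Uncentred values gave 13 for calcofluor white 0.02 mg/ml at 90 min, genes on all arrays gave 1 for calcofluor white 0.1 mg/ml at 15 min and 1 for 20 minus 2 mM at 15 min, and the first spot alone gave 2 for 15 minus 5 min.

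Leaving out each array in turn gave 6 to 16 for caffeine 20 mM at 15 min, 15 to 21 at 90 min, 2 to 7 for 2 mM at 5 min, 0 to 3 and 0 to 9 for calcofluor white 0.02 and 0.1 mg/ml at 90 min, 0 to 1 for 0.1 mg/ml at 15 min and for congo red 0.02 mg/ml at 5 min, 0 to 11, 0 to 2 and 11 to 20 for 20 minus 2 mM at 5, 15 and 90 min, 0 to 2 and 8 to 16 for 15 minus 5 and 90 minus 15 min of 20 mM, 0 to 13 and 0 to 8 for the same contrasts of 2 mM, and 0 to 1 for calcofluor white 90 minus 15 min. In these fits the remaining array is assumed to vary like those of the other conditions. Over all genes, the split of calls for 90 minus 15 min moved from 930 higher and 926 lower to 748 and 1164 without centring and to 315 and 90 with scaled arrays. Signal over background is not in the deposited values, so its limit on weak spots was not assessed.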
